A study of Mus musculus with 41 samples.

Results

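Mouse embryonic stem cells that had received guides against Eed were compared directly with cells that had received guides against Ezh2, after 7 days of differentiation towards spinal cord neural progenitors. The comparison uses 6 of the series' 41 RNA sequencing libraries, 3 per gene, taken by the target gene and the day in their titles, and all 15204 of 24410 gene symbols that had enough counts to be tested. The cells were R1-iCas9, a mouse embryonic stem cell line in which doxycycline switches on Cas9. All groups had 1 day of doxycycline before guide transfection, so the controls carry active Cas9 as well. Eed cells received 5 pooled guides against Eed and Ezh2 cells 5 pooled guides against Ezh2. The control (NT) received a non-targeting guide, and its 3 day 7 libraries are given for orientation. All 3 groups went through the same schedule in N2B27 medium, with bFGF first, the Wnt pathway activator CHIR99021 from day 2, retinoic acid and the Smoothened agonist SAG from day 3, and SAG alone from day 5. The labels name the genotypes Eed KO and Ezh2 KO, but pooled guides give a mixed population of edited cells and not a clone.

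Eed and Ezh2 encode core subunits of Polycomb repressive complex 2 (PRC2), which methylates lysine 27 of histone H3 at silenced developmental genes, mostly at CpG islands. Ezh2 is a methyltransferase of the complex, and its relative Ezh1 can take its place. Eed binds the methylated tail and is shared by complexes with either enzyme. In the developing spinal cord PRC2 target genes include regulators of patterning and of non-neural lineages.

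At day 7 the cells with Eed guides had less RNA of 21 genes and more of 2 than the cells with Ezh2 guides. The edgeR quasi-likelihood test, fitted over all genes and adjusted by Benjamini and Hochberg, called 23 genes at an adjusted p under 0.05, which is 0.151% of those tested. Of these, 21 were lower with Eed guides (0.138% of genes) and 2 were higher (0.0132%). Among the 21 are Dcx and Stmn2, both microtubule regulators of young neurons, Elavl2, a neuronal RNA-binding protein, and Wnt7b, a secreted Wnt ligand. Only 4 of the 21 belong to any gene list used here, Dcx and Stmn2 to the pan-neuronal list. Higher were Cdon, a co-receptor for Sonic hedgehog, and Sema3f, a secreted axon guidance cue. The falls were small, 1.29 to 2.22-fold with a median of 1.41-fold, and 20 of the 21 were under 2-fold. In bulk RNA, fewer cells of a type and less RNA per cell cannot be told apart.

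Several of these genes have 250 bases before their start in RefSeq, and 4 of these stretches are shown because PRC2 is known for acting at stretches rich in CG. The genes are Hspa12a, with the lowest adjusted p of all, Mdga2, with the largest fall, Myt1, with the fewest CG among the lower genes found there, and Carhsp1, with more. Capitals mark each CG, which reads the same on both strands. On GRCm38.p6 the stretches lie at chr19:58943673-58943922 (minus strand), chr12:67222550-67222799 (minus strand), chr2:181763082-181763331 (plus strand) and chr16:8672154-8672403 (minus strand), each printed 5′ to 3′ on the strand of its gene.
Hspa12a: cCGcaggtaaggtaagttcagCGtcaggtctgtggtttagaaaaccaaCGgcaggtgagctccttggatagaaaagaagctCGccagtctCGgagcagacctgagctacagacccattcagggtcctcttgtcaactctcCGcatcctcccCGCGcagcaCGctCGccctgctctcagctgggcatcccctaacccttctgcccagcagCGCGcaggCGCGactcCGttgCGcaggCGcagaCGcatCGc
Mdga2: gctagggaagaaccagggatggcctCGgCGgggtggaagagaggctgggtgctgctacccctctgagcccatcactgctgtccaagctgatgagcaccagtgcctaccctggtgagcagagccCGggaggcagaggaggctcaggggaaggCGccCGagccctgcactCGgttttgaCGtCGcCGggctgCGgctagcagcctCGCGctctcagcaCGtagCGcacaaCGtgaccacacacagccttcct
Myt1: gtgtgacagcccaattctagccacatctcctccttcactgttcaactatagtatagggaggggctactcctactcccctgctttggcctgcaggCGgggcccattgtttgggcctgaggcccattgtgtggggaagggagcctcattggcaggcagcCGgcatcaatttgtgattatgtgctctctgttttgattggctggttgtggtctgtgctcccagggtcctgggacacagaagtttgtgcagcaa
Carhsp1: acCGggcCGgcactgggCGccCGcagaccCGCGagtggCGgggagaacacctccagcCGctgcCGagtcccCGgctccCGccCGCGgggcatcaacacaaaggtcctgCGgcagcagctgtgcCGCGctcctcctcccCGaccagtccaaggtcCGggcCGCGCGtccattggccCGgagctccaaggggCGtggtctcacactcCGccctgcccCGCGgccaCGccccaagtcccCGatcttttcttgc
The 4 stretches hold 19, 15, 2 and 28 CG, in that order. RefSeq gave an entry for 13 of the 21 lower genes, with a median of 10 CG (range 2 to 35), and for 11352 of all genes tested, with a median of 15. At least 10 CG stood in 8 of the 13 (61.5%) and in 72.3% of all entries, so the lower genes ranged from stretches with few CG to dense ones. A count of CG in this window is a description and does not show where PRC2 binds.

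The day 7 libraries held 8745714 to 13974032 estimated counts with Eed guides, 10292219 to 13554156 with Ezh2 guides and 10520080 to 22537993 with NT. Levels are in CPM, counts relative to the scaled library size. Where a library has a count of 0, the level may still be as high as 3 counts, which is 0.225 to 0.370 CPM with Eed guides and 0.229 to 0.305 CPM with Ezh2 guides, for counting error only. Eed replicate 2 was the shallowest and stood apart on the first principal component of the day 7 libraries, at -71.3 against -16.8 and -16.5 for the other Eed libraries. It was also the lowest of the 6 libraries in 16 of the 21 lower genes. Nothing in the labels tells if the replicates are separate cultures, so p-values measure the spread between libraries only.

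The transcripts of both targeted genes were read first. Eed (chromosome 7, 89954654 to 89980983 on mm10, minus strand) had 27.9, 36.1 and 27.7 CPM with Eed guides, against 34.8, 36.7 and 27.7 CPM with Ezh2 guides. With NT it had 24.9, 26.3 and 24.9 CPM, below every library of both other groups. Eed and Ezh2 guides overlapped, at a log2 fold change of -0.12 ± 0.134 (SE; Eed over Ezh2 guides; adjusted p = 0.851). Ezh2 (chromosome 6, 47530139 to 47595341, minus strand) had 335, 322 and 314 CPM with Eed guides, against 289.7, 256 and 274 CPM with Ezh2 guides. Every Eed library was above every Ezh2 library without passing the test (0.25 ± 0.0908; adjusted p = 0.285). With NT the Ezh2 transcript had 294, 266 and 274 CPM, which overlapped the Ezh2 guides and lay below every Eed library. Small insertions and deletions need not lower a transcript, so these levels do not check the edits. Of the other core subunits, Suz12, Ezh1, Rbbp4 and Rbbp7, 0 passed by edgeR, nor by DESeq2, which gave an adjusted p for 3 of the 4, and 1 (Rbbp7) had an unadjusted p under 0.05. Ezh1, the other methyltransferase, had 16.6, 20.1 and 30.9 CPM with Eed guides, against 20.6, 26.4 and 19.7 CPM with Ezh2 guides, and these values overlapped. Suz12, the subunit that holds the complex together, had 145, 131 and 125 CPM with Eed guides, against 130.2, 125 and 127 CPM with Ezh2 guides, which also overlapped. Among 6 accessory subunits tested of 9 listed, and among 21 subunits of PRC1, the partner complex that binds methylated H3, 0 passed by edgeR and 1 in each had an unadjusted p under 0.05. By DESeq2 0 of the 3 accessory and 0 of the 13 PRC1 subunits with an adjusted p passed.

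**Figure D1:**
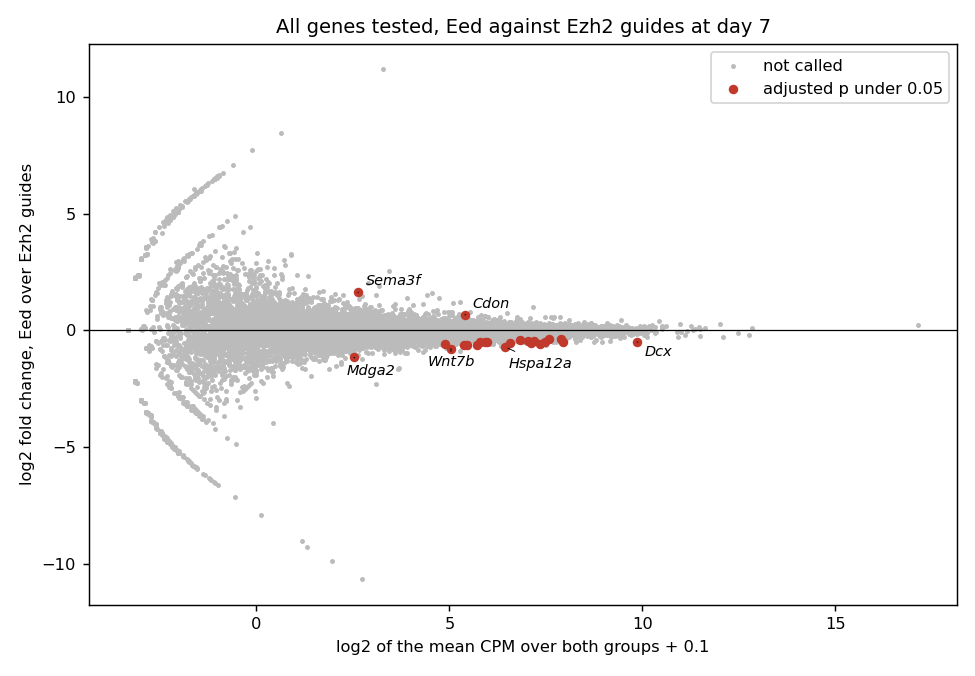
Log2 fold change (Eed over Ezh2 guides, day 7) against the log2 mean level in CPM for all 15204 genes tested, with the 23 genes at an adjusted p under 0.05 in red. The called genes lie close to the zero line and mostly below it, at levels where the spread of all genes is narrow, while the wide fans on the left are genes near the counting floor.

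The 21 lower genes are given by what each is known to do, an order set after their values were seen and without a test. Of those that act on the cytoskeleton, Dcx, doublecortin, a microtubule-associated protein of migrating neurons on chromosome X, had 744, 687 and 891 CPM with Eed guides, against 1167, 999 and 1089.5 CPM with Ezh2 guides and 1208, 1237 and 1269 CPM with NT. The highest Eed library was below the lowest Ezh2 library, and all NT libraries were above both groups. The log2 fold change was -0.49 ± 0.102 (SE, n = 3 each, adjusted p = 0.0361 by edgeR). Stmn2, which regulates microtubules in growing axons, had 137, 117 and 135 CPM with Eed guides, against 209, 193 and 185 CPM with Ezh2 guides and 204, 217 and 244 CPM with NT. It fell by 0.59 on the log2 scale (-0.59 ± 0.124; adjusted p = 0.0361), again with no overlap between Eed and Ezh2 guides. Cdk5r1, the p35 activator of the neuronal kinase Cdk5, had 48.7, 45.6 and 56.6 CPM with Eed guides, against 74.9, 64.8 and 71.6 CPM with Ezh2 guides (-0.49 ± 0.107; adjusted p = 0.0403). Pak3, a kinase that acts on the actin skeleton of neurons, had 38.1, 32.8 and 30.7 CPM with Eed guides, against 49.1, 49.6 and 60.2 CPM with Ezh2 guides (-0.64 ± 0.136; adjusted p = 0.0361). In both, the 3 Eed libraries lay below all Ezh2 libraries.

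Other lower genes encode RNA-binding proteins and nuclear regulators. Elavl2, a neuronal RNA-binding protein of the Hu family, had 151, 145 and 143 CPM with Eed guides, against 215, 202 and 203 CPM with Ezh2 guides and 242, 235 and 258 CPM with NT. Its libraries were tight within each group and separate between all 3, at -0.50 ± 0.0894 (adjusted p = 0.0174). Cpeb4, which controls translation by binding the cytoplasmic polyadenylation element, had 105, 122 and 143 CPM with Eed guides, against 169, 163 and 169 CPM with Ezh2 guides (-0.44 ± 0.0933; adjusted p = 0.0361). Carhsp1, a cold shock domain protein that binds RNA, had 104, 78.8 and 110.0 CPM with Eed guides, against 134, 123 and 133 CPM with Ezh2 guides (-0.41 ± 0.0875; adjusted p = 0.0361). For both, Eed replicate values spread more widely than Ezh2 values but did not reach them. Myt1, a zinc finger factor of neurogenesis, had 116, 91.3 and 123 CPM with Eed guides, against 162, 142 and 150.4 CPM with Ezh2 guides and 176, 195 and 181 CPM with NT. All Myt1 values with Eed guides were below those with Ezh2 guides, which in turn were below NT (-0.46 ± 0.0996; adjusted p = 0.0361). Mllt11, a small protein linked to neuronal differentiation, had 118, 85.0 and 135 CPM with Eed guides, against 174, 165 and 155 CPM with Ezh2 guides (-0.55 ± 0.119; adjusted p = 0.0361), with Eed replicate 2 the lowest by a wide margin. Zswim6, a zinc finger gene named for its SWIM domain, had the smallest fall of the 21 (-0.37 ± 0.0811; adjusted p = 0.0404).

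The largest fall was that of Mdga2, one of the lower genes for surface, matrix and vesicle proteins. Mdga2, an immunoglobulin-domain surface protein that binds neuroligins at synapses, had 3.67, 2.59 and 4.13 CPM with Eed guides, against 6.12, 10.1 and 7.34 CPM with Ezh2 guides and 7.20, 7.39 and 5.65 CPM with NT. It was 2.22-fold lower with Eed guides (-1.15 ± 0.231; adjusted p = 0.0361), the only lower gene past 2-fold, and its Ezh2 and NT libraries overlapped. Cdh11, a classical cadherin, had 90.9, 65.9 and 76.0 CPM with Eed guides, against 109, 115 and 111 CPM with Ezh2 guides and 93.8, 106 and 119.8 CPM with NT (-0.52 ± 0.109; adjusted p = 0.0361), also with overlap of Ezh2 guides and NT. Ncan, the proteoglycan neurocan of the brain matrix, averaged 205 ± 44.0 CPM with Eed guides and 289 ± 14.8 CPM with Ezh2 guides (SD, n = 3 each), and fell by 0.49 on the log2 scale (adjusted p = 0.0361). Syt11, a synaptotagmin of vesicle traffic, averaged 206 ± 10.4 CPM with Eed guides and 267 ± 17.1 CPM with Ezh2 guides, and fell by 0.38 (adjusted p = 0.0361). Wnt7b, a Wnt ligand, had 26.2, 23.9 and 22.2 CPM with Eed guides, against 38.5, 39.0 and 46.7 CPM with Ezh2 guides and 42.9, 36.0 and 34.4 CPM with NT (-0.78 ± 0.168; adjusted p = 0.0361). The 3 Eed values of Wnt7b were below every Ezh2 and NT value. Other Wnt genes did not share this direction. Of 25 tested, 20 had a positive log2 fold change, and the median was 0.62. In 5 (20%, against 7.12% of all genes) all Eed libraries were above all Ezh2 libraries, and 0 were called higher. Wnt7b was the only 1 with all Eed libraries below.

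The remaining 6 lower genes do not share 1 role. Hspa12a, an atypical member of the Hsp70 chaperone family on chromosome 19, had 66.1, 57.2 and 74.4 CPM with Eed guides, against 117, 100.0 and 103 CPM with Ezh2 guides and 98.0, 96.1 and 112 CPM with NT. Its Eed libraries lay below both other groups, which overlapped each other, and at -0.69 ± 0.107 it had the lowest adjusted p of the comparison (0.00230). Nrbp2, a pseudokinase, had 32.6, 31.7 and 33.4 CPM with Eed guides, against 45.3, 50.0 and 56.8 CPM with Ezh2 guides (-0.64 ± 0.133; adjusted p = 0.0361). Rnf150, a RING finger gene, had 56.3, 48.9 and 51.8 CPM with Eed guides, against 83.7, 68.1 and 70.3 CPM with Ezh2 guides (-0.50 ± 0.0958; adjusted p = 0.0343). Neither gene had an Eed library within the Ezh2 range. Nacad had 41.9, 32.4 and 50.5 CPM with Eed guides, against 66.9, 55.8 and 69.6 CPM with Ezh2 guides (-0.62 ± 0.131). Gatsl2 had 23.6, 24.9 and 22.8 CPM with Eed guides, against 34.9, 37.5 and 32.9 CPM with Ezh2 guides (-0.56 ± 0.122). Rundc3a had 49.7, 39.7 and 48.4 CPM with Eed guides, against 60.9, 65.1 and 69.2 CPM with Ezh2 guides (-0.50 ± 0.103). All 3 genes were lower without overlap, each at an adjusted p of 0.0361. The same adjusted p recurs because the adjustment gives neighbouring genes 1 value.

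Cdon and Sema3f were the genes higher with Eed guides. Cdon, a cell surface co-receptor that binds Sonic hedgehog, had 45.5, 62.4 and 47.2 CPM with Eed guides, against 30.4, 34.9 and 32.3 CPM with Ezh2 guides and 34.5, 37.4 and 30.5 CPM with NT. The Eed libraries were above all Ezh2 and NT libraries, and Cdon rose by 0.67 ± 0.142 on the log2 scale (adjusted p = 0.0361). Sema3f, a secreted semaphorin that repels axons, had 6.82, 8.76 and 12.2 CPM with Eed guides, against 5.05, 1.63 and 2.03 CPM with Ezh2 guides and 6.86, 8.33 and 8.83 CPM with NT. Here the Ezh2 libraries were the low ones, the Eed range overlapped that of NT, and Ezh2 replicate 1 was closer to the Eed libraries than the other Ezh2 replicates. Sema3f was 3.10-fold higher with Eed than with Ezh2 guides (1.63 ± 0.364; adjusted p = 0.0438). Against NT, the log2 fold change of Sema3f was 0.21 ± 0.340 with Eed guides (adjusted p = 0.795) and -1.42 ± 0.362 with Ezh2 guides (adjusted p = 0.0835).

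**Figure D2:**
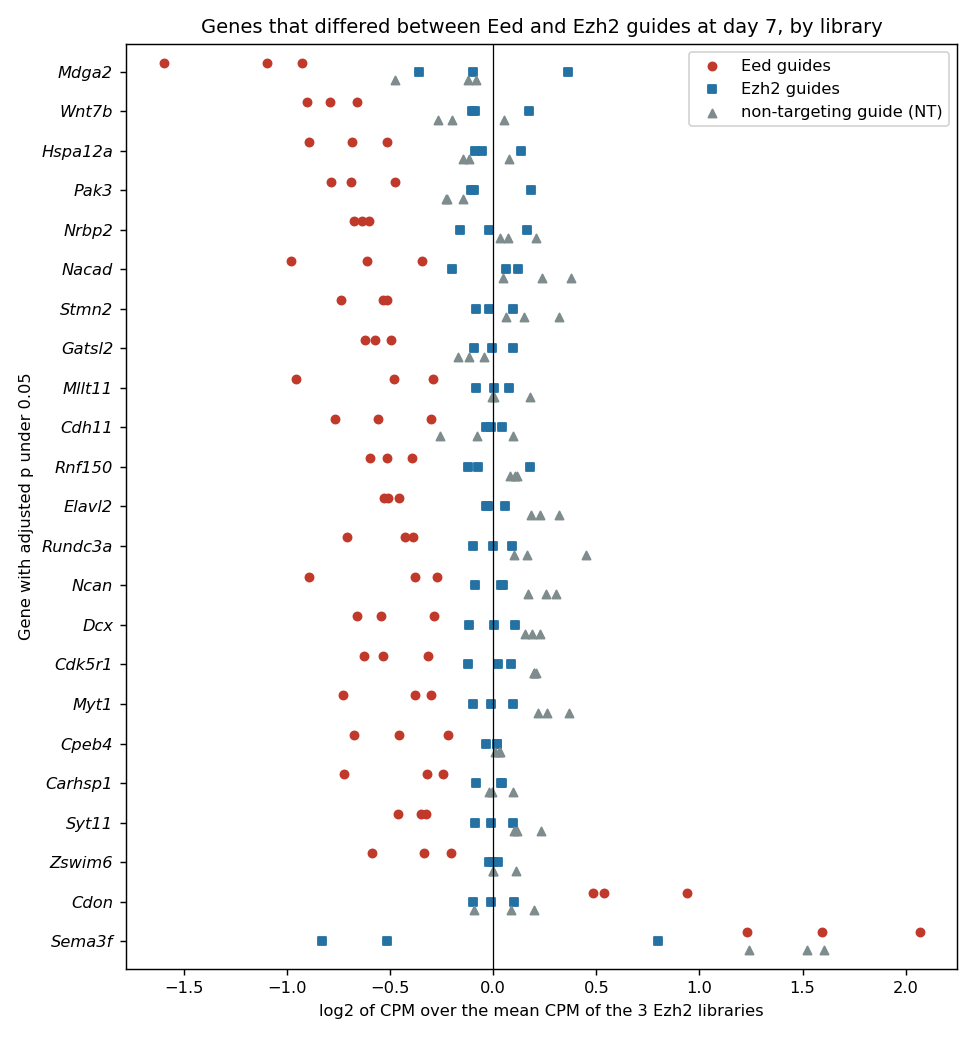
The 23 called genes in each day 7 library, as the log2 of CPM over the mean CPM of the 3 Ezh2 libraries, with Eed guides as circles, Ezh2 guides as squares and NT as triangles. In the 21 lower genes all Eed circles lie left of all Ezh2 squares, while squares and NT triangles overlap in 13 of them. Cdon and Sema3f lie on the other side, and for Sema3f the NT triangles sit among the Eed circles.

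Summed over the 21 lower genes, levels were 2571, 2224 and 2771 CPM with Eed guides, 3689.8, 3379 and 3585 CPM with Ezh2 guides and 3811, 3903 and 4045 CPM with NT. Every Eed library was below every NT library in all 21. The Ezh2 and NT libraries overlapped in 13, the Ezh2 libraries were all below NT in 7 and all above it in 1. The log2 fold changes of the 21 were -0.95 to -0.40 (median -0.65) for Eed guides against NT and -0.28 to 0.20 (median -0.10) for Ezh2 guides against NT. These comparisons share libraries with the one that chose the genes, so their values are given side by side only. Over all genes, 8.66% were called in Eed guides against NT and 0.151% in Ezh2 guides against NT.

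The count of called genes rested on a few libraries. Without Eed replicate 2 the edgeR test called 0 genes (1047 at an unadjusted p under 0.05). The log2 fold changes of the 21 lower genes were then -1.0 to -0.27 with a median of -0.43. Their sign could hardly change, since in each of the 21 all Eed libraries lay below all Ezh2 libraries. The edgeR test called 22 genes without Eed replicate 1, of which 11 were among the 23, and 112 without Eed replicate 3 (19 among the 23). It called 3 without Ezh2 replicate 1 (3 among the 23), 46 without Ezh2 replicate 2 (17) and 4 without Ezh2 replicate 3 (3). The DESeq2 test on the same libraries gave no adjusted p for 10906 genes, some far above the counting floor, such as Cdon (30.4 to 62.4 CPM). It sets its cutoff on the mean count from the data so as to call the most genes. Its count is thus not over the same genes as that of edgeR. Of the 4298 genes left DESeq2 called 154, 9 higher and 145 lower. Among them were all 18 of the 23 that had an adjusted p (not Cdon, Gatsl2, Mdga2, Sema3f and Wnt7b). Beyond the threshold, 95 genes (0.625%) had an adjusted p under 0.1 and 1529 (10.1%) an unadjusted p under 0.05, 531 higher (3.49%) and 998 lower (6.56%). Each fall and rise named here by edgeR was lost without Eed replicate 2, where the lowest adjusted p of the lower genes was 0.133.

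Pan-neuronal genes were then read as a list, since Dcx and Stmn2 were the members of it that passed. The pan-neuronal list held 20 genes, all tested, and 2 (Dcx and Stmn2) fell by edgeR and 11 of 17 with an adjusted p by DESeq2. All 20 had a negative log2 fold change, from -0.85 to -0.25 with a median of -0.38, where the median of all genes was 0 and 7519 of 15204 were negative. In 17 of the 20, Dcx and Stmn2 among them, all Eed libraries were below all Ezh2 libraries, which held for 7.95% of all genes. The list was read because these 2 genes had passed in the same libraries, and its members tend to vary together. The 17 are therefore no count of independent events. Summed levels were 4275, 3966 and 5090.2 CPM with Eed guides, 6355, 5519 and 5999 CPM with Ezh2 guides and 6950.0, 7022 and 7325 CPM with NT. The 3 groups did not overlap and stood in the order Eed, Ezh2, NT. Ncam1, the neural cell adhesion molecule, had 761, 684 and 979.9 CPM with Eed guides, against 1185, 987 and 1187 CPM with Ezh2 guides (-0.47 ± 0.107; adjusted p = 0.0522). Elavl4, a Hu family protein like Elavl2, had 215, 193 and 227 CPM with Eed guides, against 285, 257 and 289 CPM with Ezh2 guides (-0.39 ± 0.0893; adjusted p = 0.0522). Gap43, a growth cone protein, had 162, 171 and 176 CPM with Eed guides, against 265, 216 and 234 CPM with Ezh2 guides (-0.49 ± 0.117; adjusted p = 0.0579). These 3 had adjusted p above the threshold with no overlap between Eed and Ezh2 guides. Ina, a neuronal intermediate filament, also had no overlap, at an adjusted p of 0.125. Tubb3, neuronal tubulin, averaged 669 ± 57.8 CPM with Eed guides and 809 ± 50.0 CPM with Ezh2 guides (SD, n = 3 each; adjusted p = 0.167).

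Genes of motor neurons, the neurons this schedule is known to produce, were called in 0 of 17 by edgeR. DESeq2 called 0 of the 6 with an adjusted p. By edgeR 5 had an unadjusted p under 0.05, against 10.1% of all genes. In 5 of 17 (29.4%, against 7.95% of all genes) the Eed libraries were all below the Ezh2 libraries. In 0 they were all above, against 7.12% of all genes, and the median log2 fold change was -0.48. Lhx4, a LIM factor of ventral neurons, had 18.7, 14.3 and 16.0 CPM with Eed guides, against 23.4, 27.2 and 28.6 CPM with Ezh2 guides (-0.68 ± 0.199; adjusted p = 0.144). Mnx1, a homeobox factor of motor neurons, had 10.0, 4.81 and 10.2 CPM with Eed guides, against 17.4, 12.9 and 14.7 CPM with Ezh2 guides (-0.83 ± 0.359; adjusted p = 0.406). Both sets of libraries were separate, while Isl1, a LIM factor of motor neurons, overlapped with 52.4, 48.9 and 74.5 CPM with Eed guides, against 81.4, 57.3 and 75.8 CPM with Ezh2 guides. The list summed to 798, 759.9 and 902 CPM with Eed guides, 998, 892 and 976 CPM with Ezh2 guides and 1087, 1118 and 1190.3 CPM with NT, and Eed replicate 3 was above the lowest Ezh2 library. Axon guidance genes were called in 0 of 29 by edgeR (9 at an unadjusted p under 0.05, against 10.1% of all genes) and in 3 of 19 with an adjusted p by DESeq2. Of the 29, 8 were separate and lower (27.6%, against 7.95% of all genes) and 1 separate and higher (3.45%, against 7.12%). Their median was -0.15. Slit3, a secreted guidance cue, had 129, 119.8 and 178 CPM with Eed guides, against 218, 193 and 252 CPM with Ezh2 guides (-0.64 ± 0.148; adjusted p = 0.0522). Among 34 clustered protocadherins, surface proteins that give neurons their identity, 0 were called by edgeR (10 at an unadjusted p under 0.05, against 10.1% of all genes). By DESeq2 31 had no adjusted p. Of the 34, 7 were separate and lower (20.6%, against 7.95% of all genes) and 1 separate and higher (2.94%, against 7.12%).

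**Figure D3:**
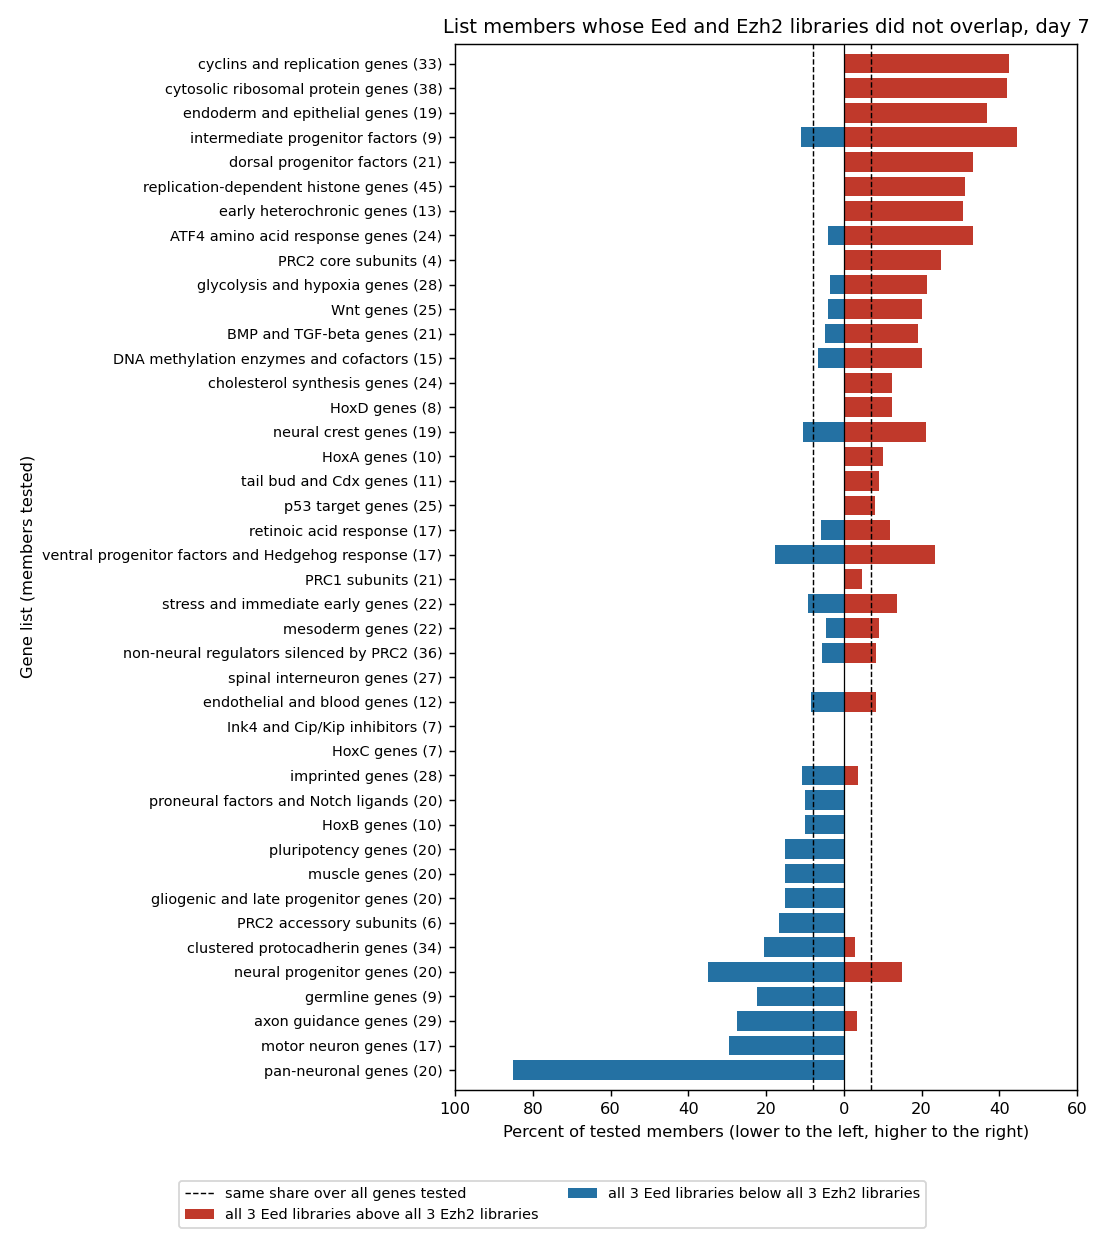
For each gene list, the percent of tested members in which all 3 Eed libraries were below (blue, to the left) or above (red, to the right) all 3 Ezh2 libraries at day 7, with dashed lines at the shares over all genes (7.95% and 7.12%). The pan-neuronal list reaches 85% on the left, and cyclins and replication genes, ribosomal proteins and histones lie on the right.

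Most dorsal and intermediate patterning factors had positive log2 fold changes, and none passed by edgeR. Of 21 dorsal progenitor factors, all tested, 0 were called by edgeR, and DESeq2 gave no adjusted p for any. By edgeR 6 had an unadjusted p under 0.05, against 10.1% of all genes. Of the list, 7 had all Eed libraries above all Ezh2 libraries (33.3%, against 7.12% of all genes). A negative log2 fold change was found in 3, and the median was 0.86. Pax3, a paired-box factor of the dorsal neural tube, had 28.8, 53.5 and 32.7 CPM with Eed guides, against 10.1, 22.1 and 11.7 CPM with Ezh2 guides and 3.77, 4.79 and 1.23 CPM with NT. The groups were separate, but the libraries of each varied widely, with replicate 2 the highest in every group (1.39 ± 0.470; adjusted p = 0.233). Zic1, a dorsal zinc finger factor, had 52.8, 68.3 and 53.2 CPM with Eed guides, against 34.9, 30.0 and 36.3 CPM with Ezh2 guides and 7.25, 13.7 and 14.2 CPM with NT (0.78 ± 0.308; adjusted p = 0.334). Wnt1, a Wnt ligand of the dorsal midline, had 27.5, 51.2 and 27.0 CPM with Eed guides, against 12, 12.5 and 9.94 CPM with Ezh2 guides and 3.04, 2.08 and 1.33 CPM with NT (1.61 ± 0.762; adjusted p = 0.469). In all 3 genes the NT libraries were the lowest. Pax7, the relative of Pax3, had 5.62, 12.2 and 3.04 CPM with Eed guides, against 2.37, 6.41 and 2.70 CPM with Ezh2 guides, and its groups overlapped. The dorsal list summed to 174, 271 and 166 CPM with Eed guides, 98.3, 116 and 91.0 CPM with Ezh2 guides and 44.3, 50.9 and 46.7 CPM with NT. Of 9 intermediate factors, 4 were separate and higher (44.4%, against 7.12% of all genes) and 1 separate and lower (11.1%, against 7.95%). The lower one, Prdm8, a PR domain factor, had 104, 86.1 and 84.6 CPM with Eed guides, against 121, 128 and 133 CPM with Ezh2 guides (adjusted p = 0.0988), and it was the 1 of 3 with an adjusted p that DESeq2 called (adjusted p = 0.0178). Dbx2, a homeobox factor of intermediate progenitors, came nearest to the threshold by edgeR, with 1.35, 2.84 and 5.43 CPM with Eed guides, against 0.306, 0.204 and 0.483 CPM with Ezh2 guides and 2.75, 1.77 and 1.23 CPM with NT (3.23 ± 0.748; adjusted p = 0.0522), but at levels close to the counting floor with Ezh2 guides. Pax6, expressed across intermediate progenitors, had 129.7, 122 and 126 CPM with Eed guides, against 79.3, 95.1 and 90.1 CPM with Ezh2 guides (0.52 ± 0.190; adjusted p = 0.277).

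Ventral progenitor factors and Hedgehog response genes did not share 1 direction. Of 17 tested, Cdon rose, and the median was -0.12. In the list 4 were separate and higher (23.5%, against 7.12% of all genes) and 3 separate and lower (17.6%, against 7.95%). Olig2, the factor of motor neuron progenitors, had 191, 123 and 186 CPM with Eed guides, against 228, 179 and 231 CPM with Ezh2 guides and overlapped (-0.35 ± 0.162; adjusted p = 0.456). Boc and Gas1, which like Cdon are Sonic hedgehog co-receptors, were separate and higher without passing. Boc had 84.4, 108 and 94.8 CPM with Eed guides, against 48.7, 83.2 and 59.9 CPM with Ezh2 guides (adjusted p = 0.254), and Gas1 had 60.3, 83.3 and 62.3 CPM with Eed guides, against 42.7, 42.9 and 43.9 CPM with Ezh2 guides (adjusted p = 0.269). Ptch1, the Hedgehog receptor and a target of the pathway, averaged 527 ± 9.73 CPM with Eed guides and 595 ± 18.7 CPM with Ezh2 guides (SD, n = 3 each; adjusted p = 0.399). The co-receptors stood on one side and the receptor on the other, and only Cdon passed.

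Genes of dividing cells were slightly higher in most members, and none passed by edgeR. Of 33 cyclins and replication genes, 0 were called by edgeR and 0 of 19 with an adjusted p by DESeq2. By edgeR 5 had an unadjusted p under 0.05, against 10.1% of all genes. Of the list, 14 were separate and higher (42.4%, against 7.12% of all genes), 0 separate and lower and 1 negative. The median log2 fold change was 0.17. Ccnd2, a D-type cyclin, had 1583, 1668 and 1496 CPM with Eed guides, against 1200.1, 1278 and 1114 CPM with Ezh2 guides and 1013, 908 and 796 CPM with NT (0.40 ± 0.142; adjusted p = 0.258). Ccnd1, its relative, had 270.3, 301 and 275 CPM with Eed guides, against 209, 240.5 and 219.9 CPM with Ezh2 guides and 163, 155 and 154 CPM with NT (0.34 ± 0.192; adjusted p = 0.576). Both cyclins stood in the order Eed, Ezh2, NT with no overlap between Eed and Ezh2 guides. Replication-dependent histone genes, which are transcribed in S phase, were separate and higher in 14 of 45 (31.1%, median 0.19). Cytosolic ribosomal protein genes were so in 16 of 38 (42.1%, median 0.16). By edgeR 0 were called in either list (1 histone gene and 7 ribosomal protein genes at an unadjusted p under 0.05). DESeq2 called 0 of 39 histone genes and 1 of 36 ribosomal protein genes with an adjusted p. Members of each of these lists tend to vary together, so a share of separate members is no count of independent events. The cyclin list summed to 8141, 8082 and 7567 CPM with Eed guides, 6651, 7170.5 and 6697 CPM with Ezh2 guides and 6207, 5973 and 5672 CPM with NT.

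**Figure D4:**
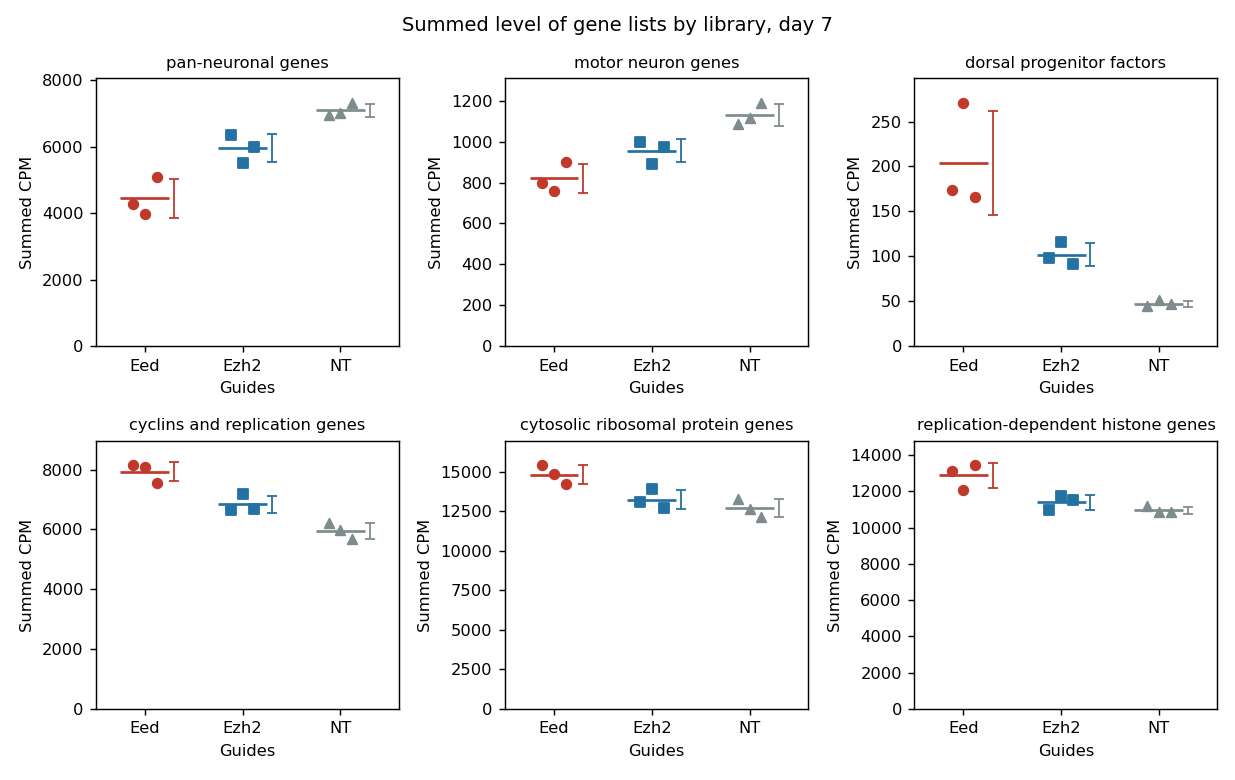
Summed CPM of 6 gene lists in each day 7 library, with the mean (line) and SD (bracket) of Eed guides, Ezh2 guides and NT. Pan-neuronal genes run from low to high in the order Eed, Ezh2, NT, and dorsal factors and cyclins run from high to low in that order, with Eed replicate 2 the highest dorsal point (271 CPM).

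Hox genes are the best known PRC2 targets. Of 10 HoxA, 10 HoxB, 7 HoxC and 8 HoxD genes tested, 0 were called by edgeR. DESeq2 called 0 of the 14 with an adjusted p. By edgeR 2 had an unadjusted p under 0.05, against 10.1% of all genes. The lists had median log2 fold changes of 0.15, -0.09, -0.06 and 0.21 in that order. Hoxa10, near the counting floor, and Hoxd4 were separate and higher, and Hoxb8 was separate and lower. Among the 35 Hox genes tested neither count was above the share over all genes (7.12% higher and 7.95% lower). Hoxb8 had 132, 129 and 134 CPM with Eed guides, against 159.7, 155 and 142 CPM with Ezh2 guides (adjusted p = 0.649), and Hoxd4 had 114, 103 and 102 CPM with Eed guides, against 78.9, 92.5 and 96.1 CPM with Ezh2 guides (adjusted p = 0.531). HoxB genes summed to 819, 837 and 814 CPM with Eed guides, 871, 908 and 882 CPM with Ezh2 guides and 788, 702 and 760.4 CPM with NT, with Eed below Ezh2 guides and above NT. HoxD genes summed to 279.6, 267 and 266 CPM with Eed guides, 221, 246 and 264 CPM with Ezh2 guides and 285, 281 and 249 CPM with NT, with the lowest Eed library just above the highest Ezh2 library and NT overlapping both. HoxA and HoxC sums overlapped between Eed and Ezh2 guides. Of 36 tested regulators of non-neural lineages silenced by PRC2, 0 were called by edgeR (2 at an unadjusted p under 0.05), and 35 had no adjusted p by DESeq2. In this list 3 were separate and higher (8.33%) and 2 separate and lower (5.56%), near the 7.12% and 7.95% of all genes. Spinal interneuron genes had 0 of 27 separate in either direction. Neural progenitor genes had 7 of 20 separate and lower (35%) and 3 separate and higher (15%), with a median of -0.01. Among them Sox9, a progenitor and glial factor, had 124, 91.2 and 101 CPM with Eed guides, against 148, 138 and 144 CPM with Ezh2 guides (adjusted p = 0.159), while Id3, an inhibitor of differentiation factors, had 74.6, 76.2 and 67.3 CPM with Eed guides, against 44.0, 52.2 and 45.9 CPM with Ezh2 guides (adjusted p = 0.107).

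The labelled cell type was checked against its markers. Sox1, Sox2, Sox3, Pax6, Nes, Vim, Hes5 and Fabp7 were present in every library and summed to 2014 to 2119 CPM with Eed guides, 2116 to 2231 CPM with Ezh2 guides and 2170.0 to 2284 CPM with NT. Olig2, Nkx6-1, Nkx6-2 and Nkx2-2 of ventral progenitors summed to 209 to 309 CPM with Eed guides, 299.5 to 377 CPM with Ezh2 guides and 438 to 465 CPM with NT. The 5 neuron markers, among them Dcx and Stmn2, summed to 1811 to 2221 CPM with Eed guides, 2455 to 2799 CPM with Ezh2 guides and 2981 to 3127 CPM with NT, so the libraries hold neurons beside progenitors. The 4 neural crest markers (Sox10, Tfap2b, Foxd3 and Ets1) summed to 98.4 to 142 CPM with Eed guides, 49.3 to 91.0 CPM with Ezh2 guides and 22.8 to 27.3 CPM with NT. The 4 endoderm and epithelium markers summed to 39.9 to 72.5 CPM with Eed guides, 20.3 to 31.0 CPM with Ezh2 guides and 19.8 to 23.3 CPM with NT, most of it Cdh1, which had 43.4, 63.9 and 35.6 CPM with Eed guides, against 24.6, 21.7 and 15.9 CPM with Ezh2 guides (adjusted p = 0.334). Both of these marker sums were above those with Ezh2 guides in every Eed library, beside the lower neuronal sums. The endoderm members of the second sum overlapped. Sox17 had 0.375, 0.370 and 0.434 CPM with Eed guides, against 1.53, 1.02 and 0.193 CPM with Ezh2 guides. Gata6 had 0.749, 3.08 and 0 CPM, against 2.75, 1.93 and 1.35 CPM. The higher second sum thus rests on the epithelial genes Cdh1 and Epcam. All 19 neural crest genes summed to 811 to 868 CPM with Eed guides and 829 to 896 CPM with Ezh2 guides, which overlapped. Of the members, 4 were separate and higher (21.1%, against 7.12% of all genes) and 2 separate and lower (10.5%, against 7.95%). Their list had a median log2 fold change of 0.36. The 19 endoderm and epithelial genes tested summed to 165 to 226 CPM with Eed guides and 138 to 174 CPM with Ezh2 guides, which overlapped too. In that list 7 were separate and higher (36.8%), 0 separate and lower, and the median was 0.78. The part of both lists in the result was not tested. The 4 pluripotency markers summed to 12 to 23.6 CPM with Eed guides, 16.2 to 20.6 CPM with Ezh2 guides and 37.5 to 67.8 CPM with NT and the 4 mesoderm markers to 18.5 to 20.2 CPM with Eed guides, 11.2 to 20.4 CPM with Ezh2 guides and 16.2 to 27.0 CPM with NT. Muscle markers summed to 0.740 to 2.92 CPM with Eed guides and 2.80 to 6.04 CPM with Ezh2 guides, with Myod1 at 0 in all 6 libraries. Endothelial and blood markers summed to 4.64 to 7.16 CPM with Eed guides and 1.12 to 3.13 CPM with Ezh2 guides, with Ptprc at 0 in all 6. The ribosomal RNA gene Rn45s took 12 to 15.8% of counts with Eed guides and 11 to 14.1% with Ezh2 guides.

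The same comparison at days 9 and 11 uses other libraries, so the 21 lower genes could be read again there. They were chosen by their day 7 values, and that choice alone tends to make the day 7 falls the larger ones. Nothing in the labels tells if the later libraries come from separately edited cells. At day 9 edgeR called 0 genes in all (1486, or 9.77%, at an unadjusted p under 0.05, and 152 by DESeq2). All 21 had a negative log2 fold change at day 9, -0.60 to -0.06 with a median of -0.24 (0.006 over all genes). In 12 the Eed libraries were all below the Ezh2 libraries, against 6.54% of all genes. At day 11, where 438 genes were called (2.88%), 18 of the 21 were negative, -0.56 to 0.12 with a median of -0.17 (-0.012 over all genes). Again 12 were separate and lower, against 12% of all genes. Pak3 (-0.52 ± 0.124; adjusted p = 0.0164), Nrbp2 (-0.55 ± 0.121; adjusted p = 0.00856) and Stmn2 (-0.42 ± 0.122; adjusted p = 0.0480) fell at day 11 too, 3 of 21 against 1.35% of all genes called lower. Hspa12a, the gene with the lowest adjusted p at day 7, was at -0.07 ± 0.103 at day 11 (adjusted p = 0.816), and Wnt7b was at 0.12 ± 0.158 (adjusted p = 0.792). None of the 21 passed the test of a difference between day 11 and day 7. Pan-neuronal genes had a median of -0.38 at day 7, -0.30 at day 9 and -0.31 at day 11, and dorsal factors 0.86, 0.88 and 0.29 in the same order of days. Cdon was at -0.07 ± 0.140 at day 9 and 0.13 ± 0.138 at day 11, and neither value passed.

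**Figure D5:**
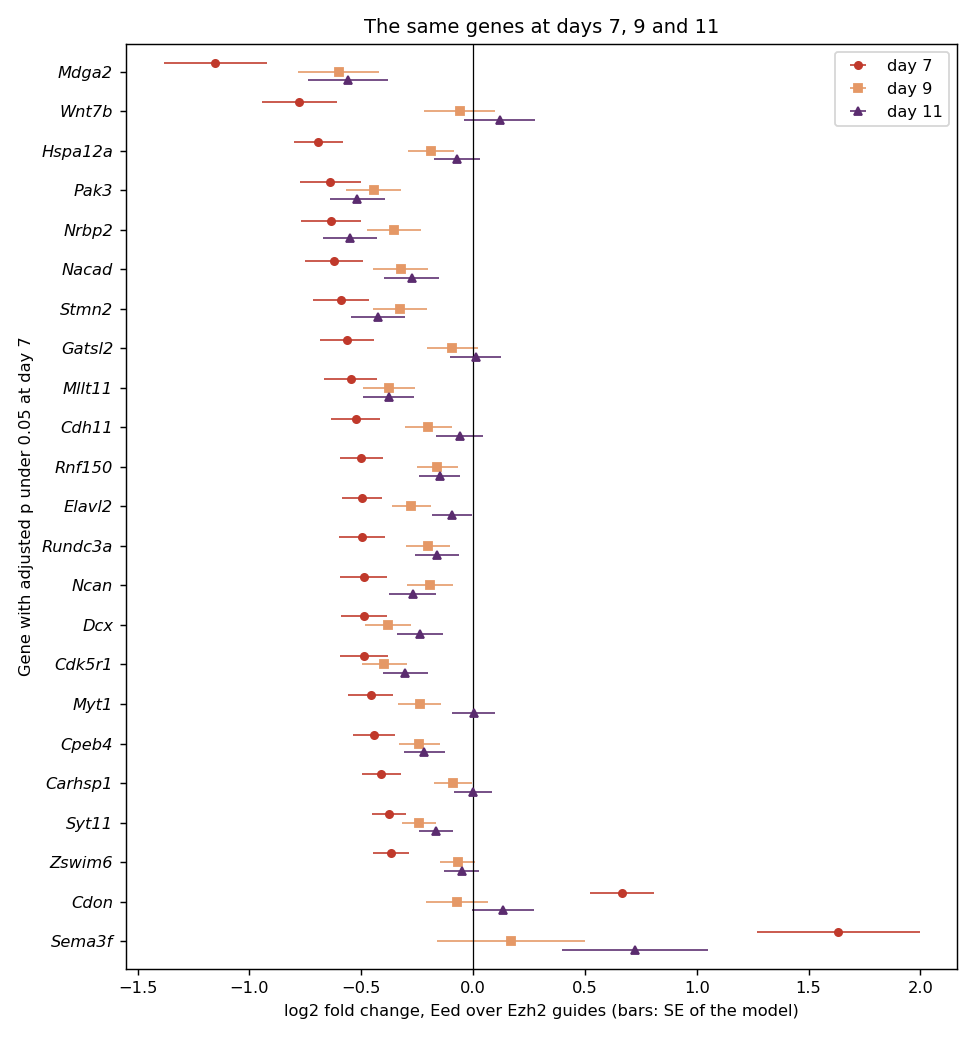
Log2 fold change (Eed over Ezh2 guides) with the SE of the model for the 23 genes called at day 7, at days 7, 9 and 11. Most of the lower genes lie nearer to 0 at days 9 and 11 than at day 7, the day by which they were chosen. Pak3, Nrbp2 and Stmn2 stand at -0.52, -0.55 and -0.42 at day 11.

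A test of whether the difference between Eed and Ezh2 guides changed from day 7 to day 11 called 1 gene of 15204 by edgeR (0.00658%), Sema3d, a secreted semaphorin of axon guidance. At day 7 Sema3d had 61.7, 64.4 and 68.6 CPM with Eed guides, against 88.2, 83.3 and 95.1 CPM with Ezh2 guides and 112, 128 and 139 CPM with NT, with Eed below Ezh2 and Ezh2 below NT (-0.45 ± 0.180; adjusted p = 0.336). At day 11 it averaged 9.84 ± 2.88 CPM with Eed guides and 3.62 ± 0.976 CPM with Ezh2 guides (SD, n = 3 each), and every Eed library was above every Ezh2 library (1.47 ± 0.231; adjusted p = 0.000273). The difference between the 2 days was 1.93 ± 0.293 on the log2 scale (adjusted p = 0.00146).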

How the data were processed

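RNA was measured by directional, ribodepleted sequencing of column-purified total RNA, per the labels' protocols, although the labels also call the molecule genomic. The values are estimated counts per gene symbol and library, deposited by the authors as raw counts, and 29525 of them had a fraction. They were rounded to whole counts. Genome build mm10 and DESeq2 come from the submitters' processing notes. An aligner, a counter and an annotation were not given in the sources used here. Libraries were grouped by target and day from their titles.

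Counts were filtered with filterByExpr (15204 genes tested, 9206 not) and scaled by TMM. A quasi-likelihood model with a mean for each of 15 groups was fitted to all 41 libraries with edgeR 4.0.16 in R 4.3.3. The spread was therefore shared by all groups. Tests were two-sided, with Benjamini-Hochberg adjustment over 15204 genes and a threshold of 0.05. CPM are on TMM-scaled library sizes, and marker sums use the same scale. The SE is the absolute log2 fold change over the square root of F. A gene is called separate where all 3 libraries of 1 group lie outside the range of the other. The pipeline was tested on simulated data.

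The members and the 42 gene lists were chosen with earlier results of these data known. Genes were named by rule: both targets, the 12 highest and 12 lowest log2 fold changes among called genes with at least 2 CPM and no overlap, up to 4 called members of a list or else up to 2 of its most abundant. The other called genes are named as well. Further list members given as values were picked with their values in view. Positions are from GENCODE M21 (GRCm38, the assembly of mm10) and upstream bases from RefSeq (GRCm38.p6), matched by symbol and taken at the first start listed. Alternatives were DESeq2 size factors, the DESeq2 1.42.0 Wald test, no filter or a stricter filter on low counts, only the compared libraries in the fit, the replicate number as a block, Rn45s left out and each library left out in turn. A fit of the day 7 libraries alone was added after seeing the data.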

Additional observations from a re-analysis of the deposited data

Results flagged for a closer look

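The difference between Eed and Ezh2 guides in Sema3d was not the same at both ends of the time course. Its log2 fold change was -0.45 at day 7 and 1.47 at day 11, and the test of the difference itself gave 1.93 ± 0.293 (SE, n = 3 libraries a group, adjusted p = 0.00146 by edgeR over all genes tested). All 3 Eed libraries were below the Ezh2 libraries at day 7 and all 3 above them at day 11.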

How the results depend on the processing

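The 23 called genes (2 higher and 21 lower with Eed guides) were recounted under each alternative, and no called gene changed direction under any of the 14. A change of direction was hardly possible. The alternatives reuse the same libraries, and in all 23 the Eed and Ezh2 libraries did not overlap. DESeq2 size factors gave the same 23. The DESeq2 test called 154 (9 higher, 145 lower; 10906 genes had no adjusted p). Without the low-count filter 353 were called (81 higher, 272 lower), with a filter of 1 CPM in 3 of the 6 libraries 39 (36 lower), and without Rn45s also 39 (36 lower). Fitting only the 6 libraries gave 69 (29 higher, 40 lower; 13 of the 23 shared), and fitting only the day 7 libraries, chosen after seeing the data, 100 (28 higher, 72 lower; 21 shared). With the replicate number as a block 91 were called (8 higher, 83 lower), among them all 23. Same-numbered Eed and Ezh2 libraries deviated together by r of 0.037, 0.012 and 0.050 only, although every Eed library correlated best with its own number. The main test did not take the numbers as pairs, and these r do not settle if they are. Leaving out 1 library gave 0 to 112 called genes, 0 to 5 higher and 0 to 107 lower. The cause of these shifts was not tested. Called genes passed in 6 (Gatsl2) to 13 (Hspa12a) of the alternatives. The day 11 less day 7 test, with 1 gene called, called 21 by DESeq2, 155 without the filter and 1 to 2 when 1 library was left out. With 3 libraries a group, the smallest fall called was 1.29-fold.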

Other observations

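Genes of glycolysis and of the ATF4 amino acid response, which answer to hypoxia and to amino acid shortage, were not part of the comparisons above. Of 28 glycolysis and hypoxia genes 0 were called by edgeR and 0 of 16 with an adjusted p by DESeq2. By edgeR 13 had an unadjusted p under 0.05, against 10.1% of all genes. With Eed guides 6 were separate and higher (21.4%, against 7.12% of all genes) and 1 separate and lower (3.57%, against 7.95%). The median log2 fold change was 0.27. Pgk1, a glycolytic kinase, had 325, 195 and 225 CPM with Eed guides, against 186, 173 and 148 CPM with Ezh2 guides (adjusted p = 0.243). Of 24 ATF4 response genes tested of 26 listed 0 were called by edgeR (5 at an unadjusted p under 0.05, 4 higher and 1 lower). DESeq2 called 1 of 10 with an adjusted p, Vldlr, which was lower with Eed guides (log2 fold change -0.42; adjusted p = 0.0218). Of these 24, 8 were separate and higher (33.3%) and 1 separate and lower (4.17%), at a median of 0.23. Asns, asparagine synthetase, had 147, 126 and 119.7 CPM with Eed guides, against 98.1, 103 and 108 CPM with Ezh2 guides (adjusted p = 0.243). The medians were 0.42 and 0.28 at day 9 and -0.01 and -0.04 at day 11, glycolysis first. Of 13 early heterochronic genes 4 were separate and higher (30.8%), at a median of 0.16 at day 7, 0.21 at day 9 and 0.43 at day 11. Sall4, a factor of early progenitors, had 128, 127 and 144 CPM with Eed guides, against 98.6, 87.4 and 101 CPM with Ezh2 guides (adjusted p = 0.258).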
